A study of Mus musculus with 8 samples.

Results

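The mRNAs described here encode the postsynaptic side of fast inhibition: the glycine receptor subunits Glra1, Glra2, Glra3 and Glrb, the GABA-A receptor subunit Gabra2, the scaffold protein gephyrin (Gphn) and the potassium-chloride cotransporter KCC2 (Slc12a5). These 7 of the 38924 genes in the deposited tables were taken by symbol. All 7 were tested in every comparison. Precipitates were made from the whole spinal cord of 8 mice through an HA tag on the ribosomal protein Rpl22. The tag is added only after recombination by Cre and marks ribosome-bound mRNA. Mice without Cre have no tagged ribosomes, so their precipitates are a background and not the ribosome-bound mRNA of another cell population. Chat-Cre acts in cholinergic cells, which in the cord include motor neurons, cholinergic interneurons and preganglionic neurons. The precipitate with Cre is thus not that of motor neurons alone. A crush of the sciatic nerve on 1 side affects only those motor neurons that send axons into that nerve, while the whole cord was used.

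The groups were, by title, Cre crushed (animals 35 and 52), Cre uncrushed (animals 10 and 3), no-Cre crushed (animals 51 and 58) and no-Cre uncrushed (animals 4 and 6). All mice were Rpl22 +/- with B6.CgxB6.129 as strain background and, per the design text, Gars+/+. Cre mice were Chat +/- and mice without Cre Chat +/+, except that the genotype entries of animal 3, titled as Cre (entry Chat +/+), and animal 4, titled as without Cre (entry Chat +/-), contradict their titles. Cre crushed animal 35 was 18 weeks old, the other crushed animals 9 weeks and the uncrushed animals 8 weeks. The titles of the uncrushed libraries also share a number whose meaning is not given, so crush cannot be told apart from age or from that number. How long after the crush the cords were collected is not given in the labels.

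Glycine and GABA released by spinal interneurons open chloride channels on motor neurons. The adult synaptic glycine receptor joins α subunits, which carry most of the agonist site, to β subunits (Glrb). The intracellular loop of the β subunit binds gephyrin and so holds the receptor at the synapse. Gephyrin also anchors GABA-A receptors, in particular those with the α2 subunit encoded by Gabra2. Whether the open channels inhibit depends on the chloride gradient, which KCC2 maintains in mature neurons by carrying chloride out, against the uptake of chloride by NKCC1 (Slc12a2). In rodents, motor neurons with severed axons are known to lose KCC2 and glycine receptors, which is why these genes are of interest after a nerve crush.

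The sequences just upstream of Glrb, Gphn and Slc12a5 are shown because mRNAs of these 3 genes were higher with Cre, and because Slc12a5 has a pair of start sites whose products differ at the N-terminus of KCC2. Each is the 250 bases before an annotated RefSeq start in GRCm38.p6, with the GC box (GGGCGG or its reverse complement CCGCCC) in capitals. The windows are chr3:80913661-80913910 on the minus strand for Glrb, chr12:78226405-78226654 on the plus strand for Gphn, and chr2:164960596-164960845 and chr2:164967738-164967987 on the plus strand for the upstream and downstream starts of Slc12a5.
Glrb upstream: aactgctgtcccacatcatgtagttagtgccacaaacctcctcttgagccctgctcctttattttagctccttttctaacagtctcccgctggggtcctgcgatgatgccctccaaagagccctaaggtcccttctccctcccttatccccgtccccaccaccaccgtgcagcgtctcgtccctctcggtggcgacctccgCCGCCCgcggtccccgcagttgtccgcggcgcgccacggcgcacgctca
Gphn upstream: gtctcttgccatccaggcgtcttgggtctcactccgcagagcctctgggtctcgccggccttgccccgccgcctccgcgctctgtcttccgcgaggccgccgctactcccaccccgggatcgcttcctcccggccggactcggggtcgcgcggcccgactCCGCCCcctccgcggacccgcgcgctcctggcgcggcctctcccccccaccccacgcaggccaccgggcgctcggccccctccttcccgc
Slc12a5 upstream start: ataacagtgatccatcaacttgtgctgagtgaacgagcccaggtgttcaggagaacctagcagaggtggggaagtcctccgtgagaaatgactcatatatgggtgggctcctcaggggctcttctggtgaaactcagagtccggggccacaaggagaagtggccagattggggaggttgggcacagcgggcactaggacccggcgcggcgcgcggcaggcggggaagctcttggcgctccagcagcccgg
Slc12a5 downstream start: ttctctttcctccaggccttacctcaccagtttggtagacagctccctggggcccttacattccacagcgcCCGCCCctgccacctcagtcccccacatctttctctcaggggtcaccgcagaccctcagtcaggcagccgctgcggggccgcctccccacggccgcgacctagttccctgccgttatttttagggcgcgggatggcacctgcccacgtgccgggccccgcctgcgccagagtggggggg
A match was found for 6 of the 7 genes in the RefSeq table, and Glra1 was not among them. GC content of the windows was 62.4% for Glrb, 77.2% for Gphn, and 61.2% and 67.2% for the upstream and downstream starts of Slc12a5, against a median of 52.4% over 32851 windows of the same length. CpG dinucleotides numbered 20 for Glrb, 34 for Gphn, and 13 and 16 for the Slc12a5 starts, against a median of 6. A GC box was found in the windows of Glrb and Gphn, in that of the downstream start of Slc12a5, and in those of Glra2, Glra3 and Gabra2, which are not shown. It occurs in 32.7% of all windows. The upstream Slc12a5 window held none and contained CCAAT (or ATTGG), which is in 33.8% of windows. TATAAA (or TTTATA), in 12.4% of windows, was found only in that of Glra2 among the 7 windows of these genes. TTCAGCACC (or GGTGCTGAA), the stronger part of the element bound by the neuronal gene repressor REST and present in 0.301% of windows, was in none of them. The counts are per gene and do not separate the start sites.

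Totals per library were 8215026 to 11522721 expected counts with Cre and 4826979 to 6468110 without. Mitochondrially encoded genes took 2.26 to 8.65% of counts with Cre and 21.61 to 59.83% without. The labels were checked on 7 motor neuron markers, whose summed level was 1690 to 2060 CPM (counts scaled to the library total as defined by TMM, a normalization that allows for composition) with Cre and 63.2 to 163 CPM without, so that animals 3 and 4 sat with their titles. Mnx1 was at 0 counts in both no-Cre uncrushed cords. The summed level of 7 inhibitory interneuron markers was 154 to 245 CPM with Cre and 392 to 567 CPM without, none of them at 0 in any library.

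Glra1, Glrb, Slc12a5 and Gphn were higher with Cre than without, in uncrushed and in crushed cord, by 1.71-fold to 3.43-fold. Glrb had the highest fold of the 7 genes in both. Glra2 and Glra3 had at most 64 counts in any library, and neither they nor Gabra2 passed the test. Thus 4 of 7 genes were called higher in each of the uncrushed and crushed comparisons, where 20.6% and 21.6% of all 15208 tested genes were called higher, and none was called lower. The median log2 fold change of the 7 genes was 1.15 in uncrushed and 0.77 in crushed cord, against -0.03 and -0.08 over all tested genes. These folds set tagged precipitates against a background and are not differences between cell populations. Where crushed and uncrushed cords are compared in bulk, fewer contributing cells and less RNA per cell cannot be told apart. The tests are edgeR's quasi-likelihood tests with Benjamini-Hochberg adjustment over all genes, and ± gives a standard error for log2 fold changes and an SD over 2 animals for levels.

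Glra1, the α subunit of the adult spinal glycine receptor, stood at 242 and 195.3 CPM in animals 35 and 52 (Cre crushed), against 86.18 and 114.4 CPM in animals 51 and 58 (no-Cre crushed). In uncrushed cord its level was 274.6 and 313.2 CPM in animals 10 and 3 with Cre, against 123.2 and 128.7 CPM in animals 4 and 6 without. The Cre and no-Cre libraries did not overlap, and the lowest Cre library was above the highest of the 4 libraries without Cre. The log2 fold change was 1.22 ± 0.24 in uncrushed cord (adjusted p = 0.00237) and 1.12 ± 0.24 in crushed cord (adjusted p = 0.00369).

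Glrb, the subunit that binds gephyrin, stood at 207.8 and 189.9 CPM in Cre crushed cords, against 60.12 and 76.97 CPM in no-Cre crushed cords. It stood at 297.3 and 289 CPM in Cre uncrushed cords, against 76.42 and 94.02 CPM in no-Cre uncrushed cords. Again no Cre library reached down to a no-Cre library. The difference was 3.43-fold in uncrushed cord (log2 1.78 ± 0.24, adjusted p = 0.000272) and 2.9-fold in crushed cord (log2 1.54 ± 0.23, adjusted p = 0.000573). The uncrushed fold change lay at the 92.4th percentile of all tested genes, so that many mRNAs of the tagged cells differed more.

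Glra2, the α subunit that predominates before birth in rodents, had 64 and 41 counts in Cre crushed cords, with 25 and 24 counts in Cre uncrushed cords. It had 21 and 12 counts in no-Cre crushed cords and 2 and 7 in no-Cre uncrushed cords. On the scaled totals this was 2.34 to 4.05 CPM with Cre and 0.78 to 2.85 CPM without. The log2 fold change of 1.00 ± 0.69 in uncrushed cord had an adjusted p of 0.261, and 0.58 ± 0.59 in crushed cord an adjusted p of 0.44. In both states the Cre libraries lay above the no-Cre libraries.

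Glra3, an α subunit known in rodents from the superficial dorsal horn, had 21 and 13 counts after crush with Cre, 11 and 24 in uncrushed cords with Cre, and 26 and 13 after crush without Cre. No-Cre uncrushed animal 4 had 0 counts, which allows up to 1.17 CPM, and animal 6 had 7. The sign of the fold change differed between comparisons, at 0.87 ± 1.00 in uncrushed and -1.26 ± 0.86 in crushed cord, and neither passed the test (adjusted p = 0.506 and 0.253). Glra4, the remaining α subunit gene of the mouse, had at most 11 counts in any library and was not tested.

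Gphn stood at 59.12 and 59.97 CPM in Cre crushed cords, against 36.91 and 22.16 CPM in no-Cre crushed cords. It stood at 52.82 and 66.71 CPM in Cre uncrushed cords, against 19.5 and 28.31 CPM in no-Cre uncrushed cords. The 4 Cre libraries lay above the 4 without Cre. The log2 fold change was 1.31 ± 0.30 in uncrushed cord (adjusted p = 0.00539) and 1.01 ± 0.29 in crushed cord (adjusted p = 0.016). Besides its role at synapses, gephyrin catalyses the last steps of molybdenum cofactor synthesis in many tissues, so its mRNA is not a neuron marker.

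Gabra2 stood at 47.66 and 58.31 CPM in Cre crushed cords, against 68.26 and 37.32 CPM in no-Cre crushed cords, and these groups overlapped. In uncrushed cord it stood at 59.59 and 44.31 CPM with Cre, against 34.31 and 24.31 CPM without, with no overlap. The log2 fold change was 0.83 ± 0.32 in uncrushed cord (adjusted p = 0.0572, 95% interval 0.12 to 1.54) and 0.00 ± 0.31 in crushed cord (adjusted p = 0.996, 95% interval -0.67 to 0.68). The difference between these comparisons was itself tested as the interaction and did not pass (log2 -0.83 ± 0.45, adjusted p = 0.874).

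Slc12a5 stood at 233.3 and 230.9 CPM in Cre crushed cords, against 130.8 and 140.9 CPM in no-Cre crushed cords. It stood at 359.6 and 437.9 CPM in Cre uncrushed cords, against 168.1 and 191.5 CPM in no-Cre uncrushed cords. The Cre libraries were above the no-Cre libraries in both states, although the Cre crushed values came closer to the no-Cre uncrushed ones. The log2 fold change was 1.15 ± 0.23 in uncrushed cord (adjusted p = 0.00234) and 0.77 ± 0.22 in crushed cord (adjusted p = 0.0172).

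**Figure D1:**
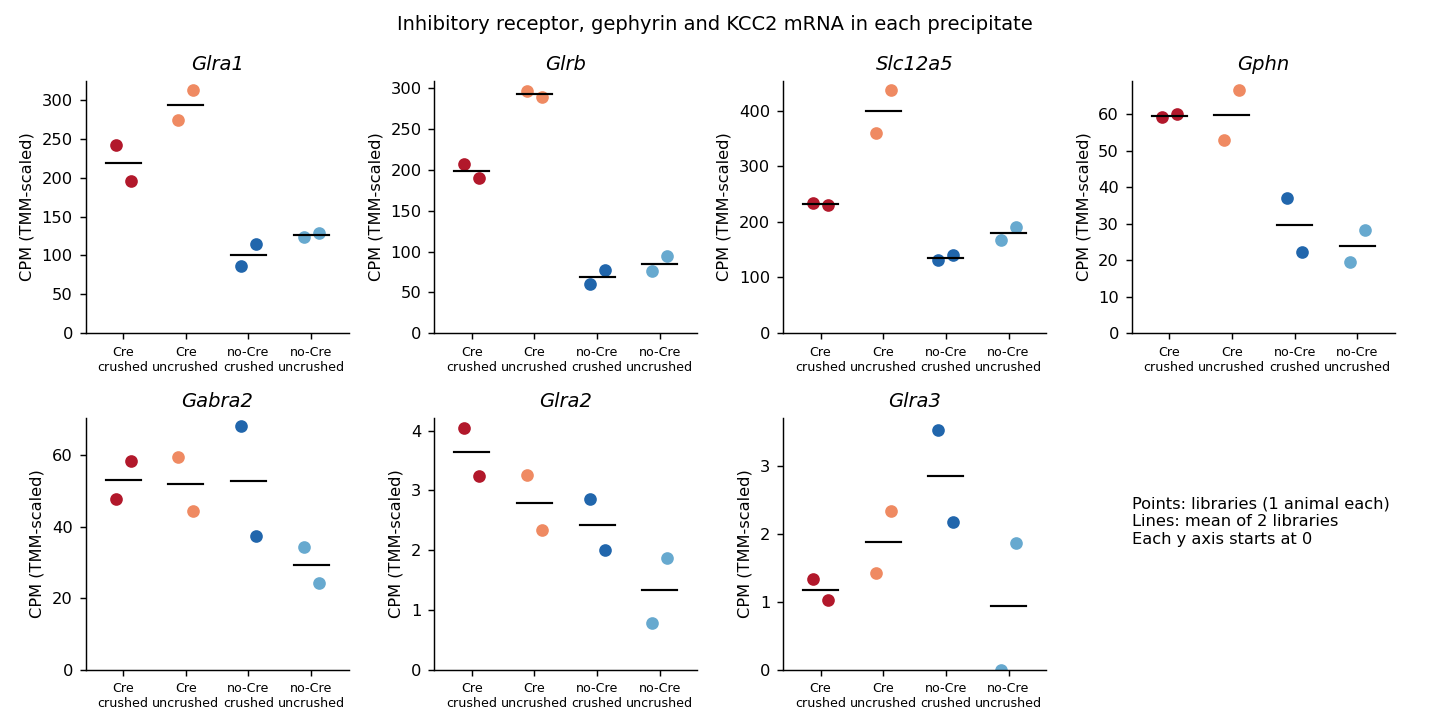
Level of each of the 7 mRNAs in CPM on TMM-scaled totals, with 1 point per library (1 animal each), a line at the mean of 2, and the 4 groups along the x axis. For Glra1, Glrb, Slc12a5 and Gphn every Cre library lies above every no-Cre library, whereas the Gabra2 libraries overlap and Glra2 and Glra3 stay below 5 CPM.

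With crush as a covariate and 4 libraries on each side, the same 4 genes were called (Glrb 3.15-fold, adjusted p = 4.63e-06; Glra1 log2 1.17 ± 0.17, adjusted p = 6.92e-05; Slc12a5 0.96 ± 0.17, adjusted p = 0.000308; Gphn 1.15 ± 0.21, adjusted p = 0.000375), where 28.7% of all genes were called higher. For these 4 genes all 4 Cre libraries lay above all 4 no-Cre libraries, which held in either direction for 51% of all genes. Gabra2 (0.40 ± 0.24, adjusted p = 0.175), Glra2 (0.76, adjusted p = 0.158) and Glra3 (-0.34 ± 0.71, adjusted p = 0.692) did not pass.

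The Cre against no-Cre comparisons rest on the titles for animals 3 and 4. Without these libraries Glrb was still called in uncrushed cord, but Glra1 (log2 1.14, adjusted p = 0.0648), Slc12a5 (0.95, adjusted p = 0.0746) and Gphn (0.94, adjusted p = 0.132) were not. This left 1 library on each side, so the spread came from the other groups and the lone libraries are assumed to vary like them. In crushed cord the calls of Slc12a5 and Gphn were the less firm ones: without Cre animal 35, Slc12a5 was at log2 0.80 (adjusted p = 0.107), Gphn at 1.06 (adjusted p = 0.072) and Glra1 at 1.00 (adjusted p = 0.0512). Without Cre animal 52, Slc12a5 was at 0.82 (adjusted p = 0.0756) and Gphn at 1.04 (adjusted p = 0.0576). Without no-Cre animal 51 the adjusted p of Slc12a5 was 0.0511 (log2 0.75), and without no-Cre animal 58 that of Gphn was 0.0792 (log2 0.74). The Glrb call was kept when any single library was left out.

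To compare the genes with each other, CPM were divided by the deposited effective length in kilobases. Among the Cre libraries Glra1 was highest, at 99.6 ± 14.9 CPM per kilobase in crushed and 133 ± 12 in uncrushed cord (SD, n = 2 each). Glrb followed at 72.8 ± 4.07 in crushed and 105 ± 0.856 in uncrushed cord, and Slc12a5 at 54.8 ± 1.98 in crushed and 91 ± 12.4 in uncrushed cord. Gabra2 (23.9 in crushed and 23.3 in uncrushed cord) and Gphn (19.1 in both) came next, and their libraries overlapped in uncrushed cord. Glra2 and Glra3 were near 1, at 1.23 and 0.648 in crushed and 0.937 and 1.08 in uncrushed cord, where they overlapped.

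Without Cre the order differed at the top. Glra1 (45.5 CPM per kilobase) and Slc12a5 (38.5) overlapped in crushed cord, as did Slc12a5 (60.6) and Glra1 (57.2) in uncrushed cord. The effective length of Slc12a5 was shorter without Cre (mean 3263 bases, against 4307 with Cre), which raises its value per kilobase there. The order at a common length was not examined. Glrb stood at 29.1 in crushed cord, overlapping Gabra2 at 23.8, and at 33.2 in uncrushed cord, above Gabra2 at 13.2. Gphn stood at 9.47 and 7.65 in crushed and uncrushed cord, and Glra2 and Glra3 were between 0.393 and 1.41.

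Per kilobase, Glra1 made up 98.1 and 98.2% of the Glra1, Glra2 and Glra3 mRNA in Cre crushed cords and 98.5% in each Cre uncrushed library. Without Cre its share was 93.3 and 96.9% in crushed and 99.5 and 97.7% in uncrushed cord. Glra1 was thus nearly all of the measured α subunit mRNA, with Cre and without. The ratio of Glra1 to Glrb per kilobase was 1.46 and 1.27 in Cre crushed cords and 1.18 and 1.36 in Cre uncrushed cords. It was 1.68 and 1.48 in no-Cre crushed cords and 2.08 and 1.49 in no-Cre uncrushed cords, so the lowest no-Cre ratio was above the highest Cre ratio by a small margin. The ratio of Gphn to Glrb counts was 0.284 and 0.316 in Cre crushed and 0.178 and 0.231 in Cre uncrushed cords. Without Cre it was 0.614 and 0.288 in crushed and 0.255 and 0.301 in uncrushed libraries, overlapping the Cre crushed values.

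Among the GABA-A α subunit genes, Gabra2 was the most abundant per kilobase in all Cre libraries, with 42.4 and 48.9% of their summed level in crushed and 55.9 and 47.8% in uncrushed cord. Without Cre its share was 53.7 and 38.8% in crushed cord and 45.6 and 22.3% in uncrushed cord. In no-Cre uncrushed animal 6 Gabra3 had the larger share, at 50.2%. Gabra5, which encodes the α5 subunit of largely extrasynaptic receptors, was next to Gabra2 in Cre libraries, with 34.6 and 27.5% in crushed and 20.5 and 28.2% in uncrushed cord. Gabra6 had 0 counts in every library.

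**Figure D2:**
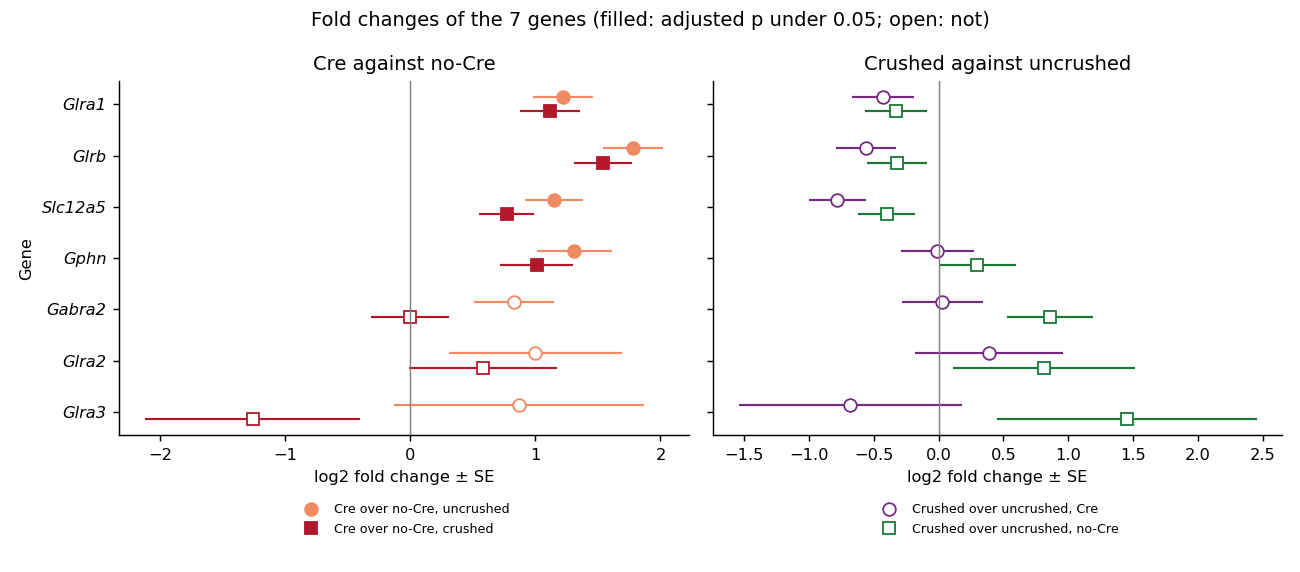
Log2 fold change ± SE of the 7 genes for Cre over no-Cre (left) and crushed over uncrushed (right), filled where the adjusted p was under 0.05. Glra1, Glrb, Slc12a5 and Gphn are called on the left in both states, and no gene is called on the right.

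The series asked how ribosome-bound mRNA changed after nerve crush. With Cre, Slc12a5, Glrb and Glra1 had lower levels in crushed than in uncrushed cord, and none of the 7 genes passed the test. In this comparison 0.0723% of all genes were called (11 of 15208). Slc12a5 stood at 233.3 and 230.9 CPM in crushed animals 35 and 52, against 359.6 and 437.9 CPM in uncrushed animals 10 and 3. Both crushed libraries lay well below both uncrushed ones. The fold was 0.582 (log2 -0.78 ± 0.22, 95% interval -1.27 to -0.29, unadjusted p = 0.00466, adjusted p = 0.276 by edgeR), at the 5.4th percentile of all tested genes. DESeq2's Wald test gave a log2 change of -0.77 with an adjusted p of 0.0391, so the call depends on the tool.

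Glrb was at 0.678 of its uncrushed level (log2 -0.56 ± 0.23, 95% interval -1.06 to -0.06, unadjusted p = 0.0304, adjusted p = 0.477 by edgeR). Glra1 differed by log2 -0.43 ± 0.24 (95% interval -0.94 to 0.09, adjusted p = 0.65). For Slc12a5, Glrb, Glra1 and the scarce Glra3 both crushed libraries were below both uncrushed ones. This held for 4 of the 7 genes and for 23.9% of all tested genes. Gphn (log2 -0.01 ± 0.28, 95% interval -0.62 to 0.61) and Gabra2 (0.03 ± 0.31, 95% interval -0.64 to 0.70) had estimates near 0, with intervals that leave room for changes of either sign. Glra2 (0.39 ± 0.57) and Glra3 (-0.68 ± 0.86) had standard errors larger than their estimates.

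Without Cre, none of the 7 genes was called by edgeR or DESeq2, and 0.0723% of all genes were by edgeR. Glra1 (log2 -0.33 ± 0.24), Glrb (-0.32 ± 0.23) and Slc12a5 (-0.40 ± 0.22, adjusted p = 0.472) had estimates of the same sign as with Cre. Gabra2 stood at 68.26 and 37.32 CPM in the crushed libraries, against 34.31 and 24.31 CPM in the uncrushed ones, a difference of 0.86 ± 0.33 (unadjusted p = 0.0221, adjusted p = 0.331 by edgeR). The test of whether the crush difference itself differed with and without Cre called 0 of the 7 genes and 0% of all 15208 genes by edgeR, where 905 genes had an unadjusted p under 0.05 and none of the 7 was among them. DESeq2 also called none of the 7. For Slc12a5 this difference was -0.38 ± 0.31 (95% interval -1.07 to 0.31, adjusted p = 0.927), for Glrb -0.24 ± 0.32 and for Glra1 -0.10 ± 0.34. A change with crush that is particular to the tagged cells was therefore not shown for any of the 7 genes.

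Summed levels of glial and endothelial markers were higher in crushed than in uncrushed Cre libraries. Those of 7 oligodendrocyte markers were 1090 and 1800 CPM in Cre crushed animals 35 and 52, against 871 and 706 CPM in Cre uncrushed animals 10 and 3. Sums over 6 astrocyte markers were 342 and 488 CPM against 207 and 190 CPM, and over 6 microglia markers 9.3 and 11.2 CPM against 3.77 and 4.19 CPM. The 4 endothelial markers summed to 13.2 and 17.7 CPM against 7.03 and 6.14 CPM, and the 7 inhibitory interneuron markers to 168 and 245 CPM against 162 and 154 CPM. The 5 excitatory interneuron markers overlapped, at 33.7 and 30.5 CPM in the crushed against 51.6 and 33.1 CPM in the uncrushed Cre libraries. The 7 motor neuron markers summed to 1850 and 1690 CPM in the crushed and 1920 and 2060 CPM in the uncrushed Cre libraries. None of these markers was called by edgeR, and their part in the lower Slc12a5, Glrb and Glra1 levels was not tested. Scaling by library size alone moved the median of all genes to 0.47 in this comparison, with Slc12a5 at -0.35, Glrb at -0.12 and Glra1 at 0.01. Relative to that median they were at -0.82, -0.58 and -0.46. Without Cre the oligodendrocyte sums were lower in crushed animals 51 and 58 (4510 and 6300 CPM) than in uncrushed animals 4 and 6 (7700 and 6720 CPM). There the astrocyte sums (3060 and 2410 against 1410 and 2370 CPM) and microglia sums (89.8 and 112 against 45.2 and 72.9 CPM) were higher. The endothelial sums overlapped (93 and 77.1 against 86.2 and 55.8 CPM).

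Beyond the 7 genes, 73 other genes of inhibitory synapses and chloride handling were found in the tables and 66 tested. With Cre against without, 15 were called higher and 17 lower in uncrushed cord, and 16 higher and 20 lower in crushed cord, against 20.6% higher and 21.9% lower of all genes in uncrushed and 21.6% higher and 21.3% lower in crushed cord. The median log2 fold changes of the 66 were 0.22 and -0.04. With crush none of the 66 was called by edgeR. At an unadjusted p under 0.05 by edgeR there were 11 (16.7%) with Cre and 9 (13.6%) without, against 9.34% and 12.8% of all tested genes. DESeq2 called 1 in each, Slc6a9 with Cre and Clcn2 without. The shares of all genes that DESeq2 called are not set beside these calls, which are therefore not read as a result about the list.

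The other GABA-A receptor subunits were mixed. Of 4 tested α subunits none was called in uncrushed cord, and Gabra5 alone was called in crushed cord (log2 1.19 ± 0.26, adjusted p = 0.00463, against 0.22 and an adjusted p of 0.535 in uncrushed cord). The interaction test called none of the 4, as it called no gene at all, so a difference between the states was not shown. None of the 3 β subunits was called in either state. Of 6 tested subunits in the remaining classes, 1 was higher and 1 lower in each state, where 20.6 to 21.9% of all tested genes were called in each direction. Gabrg3, a γ subunit gene, was lower with Cre, at log2 values of -1.63 ± 0.38 (adjusted p = 0.00574) and -1.65 ± 0.37 (adjusted p = 0.00484).

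Of 11 scaffold and adhesion genes of the inhibitory postsynapse, 2 were higher and 2 lower in uncrushed cord, and 3 higher and 2 lower in crushed cord. Over all tested genes, 20.6 to 21.9% were called in each direction and state. Nlgn2, the neuroligin of inhibitory synapses, was higher by log2 1.30 in uncrushed (adjusted p = 0.00197) and 1.36 in crushed cord (adjusted p = 0.00146). Shisa7, an auxiliary subunit of GABA-A receptors, was lower at -1.68 and -1.63. Of 5 GABA-B receptor genes, Kctd8, an auxiliary subunit, was higher in both states (1.13, adjusted p = 0.0491, and 1.83), and Kctd12 was lower in crushed cord (-1.30). The interaction test called none of these 5 genes either.

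Receptor trafficking genes, a list of 15, had 8 higher and 3 lower in uncrushed cord and 8 higher and 4 lower in crushed cord. The shares of all tested genes were 20.6 to 21.9% in each direction and state. Medians of the list were 0.81 and 0.75. Kif5c, a kinesin motor, had 1.61 in uncrushed and 1.52 in crushed cord, and Pacsin1, an endocytic adaptor, 1.77 and 1.89. Gabarapl1, Gabarapl2 and Gabarap, small ubiquitin-like proteins that act in vesicle traffic and autophagy, had 1.74, 1.60 and 1.18 in uncrushed and 2.08, 1.63 and 1.05 in crushed cord. Lower were Sdc4, a cell surface proteoglycan (-3.55 and -2.86), Plcl1, which binds GABARAP and protein phosphatases (-2.09 and -1.65), and Trak2, a mitochondrial and cargo adaptor (-1.68 and -1.31). Of the 2 tested genes that make molybdenum cofactor upstream of gephyrin, Mocs1 was lower with Cre (-1.87, adjusted p = 0.0311, and -2.03, adjusted p = 0.0148).

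Of 8 genes of glycine and GABA synthesis and uptake, some neuronal and some glial, 7 were lower with Cre in uncrushed cord and 6 in crushed cord, with medians of -1.60 and -1.28. Among all tested genes 21.9% and 21.3% were lower. All 6 astrocyte markers were also lower, with medians of -3.06 and -2.58, and their part in the result was not tested. Slc6a5, the neuronal glycine transporter GlyT2, stood at 84.43 and 131.6 CPM in Cre crushed against 248.8 and 343.5 CPM in no-Cre crushed cords, and at 97.44 and 80.15 CPM in Cre uncrushed against 381.3 and 398.2 CPM in no-Cre uncrushed cords. Slc6a9, the mainly glial transporter GlyT1, had -3.04 in uncrushed and -1.48 in crushed cord, and Slc32a1, the vesicular inhibitory amino acid transporter, -1.51 and -1.11. The glycine receptor genes Glra1 and Glrb and the glycine transporter genes thus lay on opposite sides of 0 in the same libraries. In the crush comparison with Cre, Slc6a9 had the smallest adjusted p of this list, at log2 1.28 ± 0.27 (adjusted p = 0.14).

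**Figure D3:**
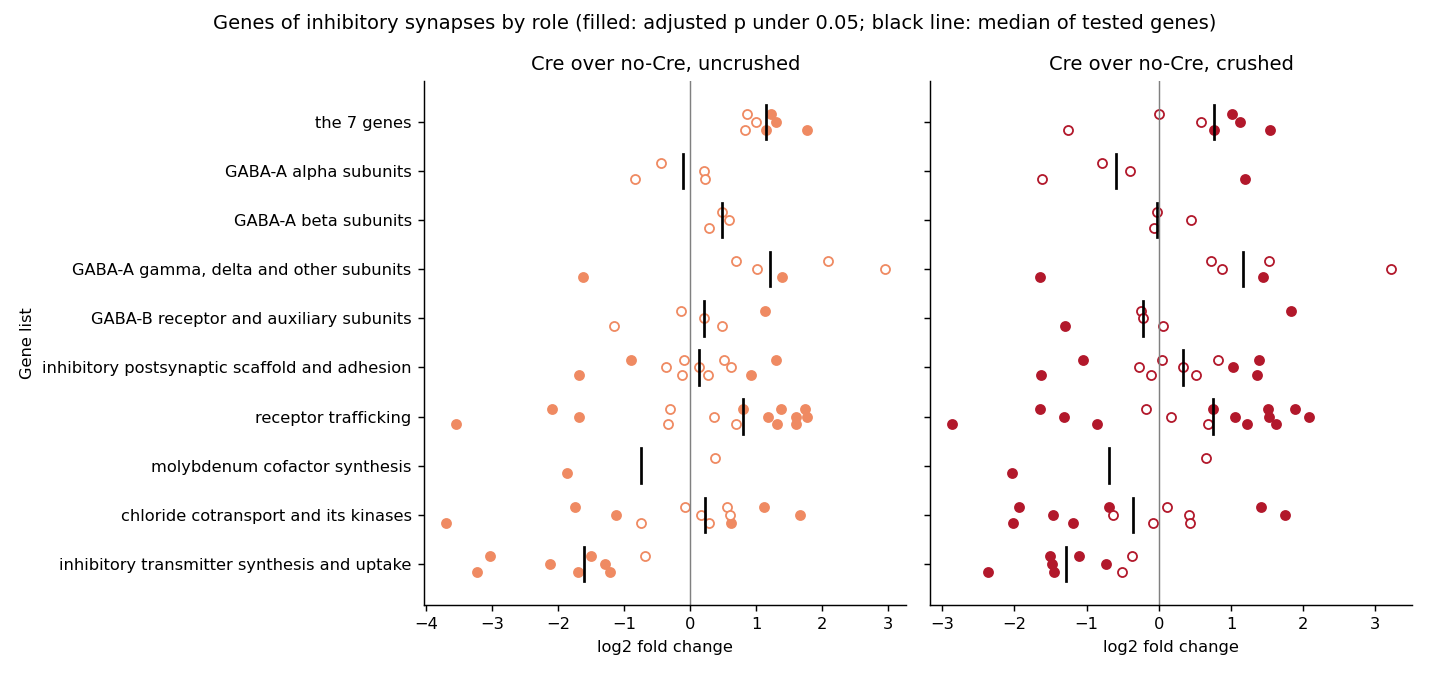
Log2 fold change of Cre over no-Cre in uncrushed (left) and crushed cord (right) for the 7 genes and for the lists by role, 1 point per tested gene, filled where the adjusted p was under 0.05, with a black line at each median. Genes of transmitter synthesis and uptake lie below 0 in both panels (medians -1.60 and -1.28), and the 7 genes have medians of 1.15 and 0.77.

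Among 12 genes of chloride cotransport and its kinases, 3 were higher and 3 lower with Cre in uncrushed cord, and 2 higher and 5 lower in crushed cord. These counts stand against 20.6% higher and 21.9% lower of all tested genes in uncrushed cord, and 21.6% higher and 21.3% lower in crushed cord. Slc12a2, which encodes the chloride importer NKCC1, was lower, at 25.13 and 26.66 CPM in Cre crushed against 99.21 and 111 CPM in no-Cre crushed cords, and at 34.35 and 29.31 CPM in Cre uncrushed against 118.5 and 96.42 CPM in no-Cre uncrushed cords. Its log2 fold change was -1.75 ± 0.23 in uncrushed (adjusted p = 0.000227) and -2.02 ± 0.22 in crushed cord (adjusted p = 0.000146). The ratio of Slc12a5 to Slc12a2 counts was 9.28 and 8.66 in Cre crushed and 10.5 and 14.9 in Cre uncrushed cords. Without Cre it was 1.32 and 1.27 in crushed and 1.42 and 1.99 in uncrushed libraries. Slc12a4, the cotransporter KCC1, was lower at log2 values of -3.70 ± 0.74 in uncrushed and -1.93 ± 0.61 in crushed cord. These rest on few counts with Cre, 7 over both uncrushed and 41 over both crushed libraries. NKCC1 is also made by glia, and the astrocyte and oligodendrocyte marker sums were 190 to 488 CPM and 706 to 1800 CPM with Cre, against 1410 to 3060 CPM and 4510 to 7700 CPM without. The part of these cells in the Slc12a2 difference was not tested.

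The paired kinases SPAK (Stk39) and OSR1 (Oxsr1), which phosphorylate both kinds of cotransporter, differed in direction. Stk39 stood at 262.6 and 259.6 CPM in Cre crushed against 60.26 and 94.79 CPM in no-Cre crushed cords, and at 390.2 and 346.8 CPM in Cre uncrushed against 104.9 and 127.7 CPM in no-Cre uncrushed cords. Its log2 fold change was 1.66 ± 0.26 in uncrushed (adjusted p = 0.000726) and 1.75 in crushed cord (adjusted p = 0.000559). Oxsr1 was lower by log2 values of -1.12 (adjusted p = 0.00953) and -1.47 (adjusted p = 0.00199). Counts of Stk39 over Oxsr1 were 7.36 to 16.5 with Cre and 0.852 to 3.21 without.

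The Slc12a5 reads also differed in their assignment to transcripts. RSEM weights the effective length of a gene by the abundance it assigns to each transcript, and the tables list 4 transcripts for Slc12a5, which in GENCODE M21 are 1 protein coding transcript of 6028 bases, 2 with a retained intron (2996 and 744 bases) and 1 processed transcript (465 bases). The effective length was 4148 and 4321 bases in Cre crushed and 4371 and 4388 bases in Cre uncrushed cords. It was 3311 and 3759 bases in no-Cre crushed and 3167 and 2813 bases in no-Cre uncrushed cords. The means were 4307 ± 110 bases with Cre and 3263 ± 392 bases without (SD, n = 4 each), so that RSEM assigned a larger part to the shorter transcripts, none of them protein coding, in the libraries without Cre. The 2 sides did not overlap, as for 14.9% of all tested genes after lengths were scaled between libraries. On these scaled lengths an exact two-sided permutation test over the 8 libraries gave p = 0.0286 for Slc12a5, the smallest that 4 against 4 allows. The gene was singled out after its lengths were seen, so this p supports nothing by itself. Glra3, with few counts, and Gabra2 also did not overlap and had the same p, although the Gabra2 mean was 2221 bases on both sides. The lengths of Glra1, Glrb, Gphn and Glra2 overlapped.

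**Figure D4:**
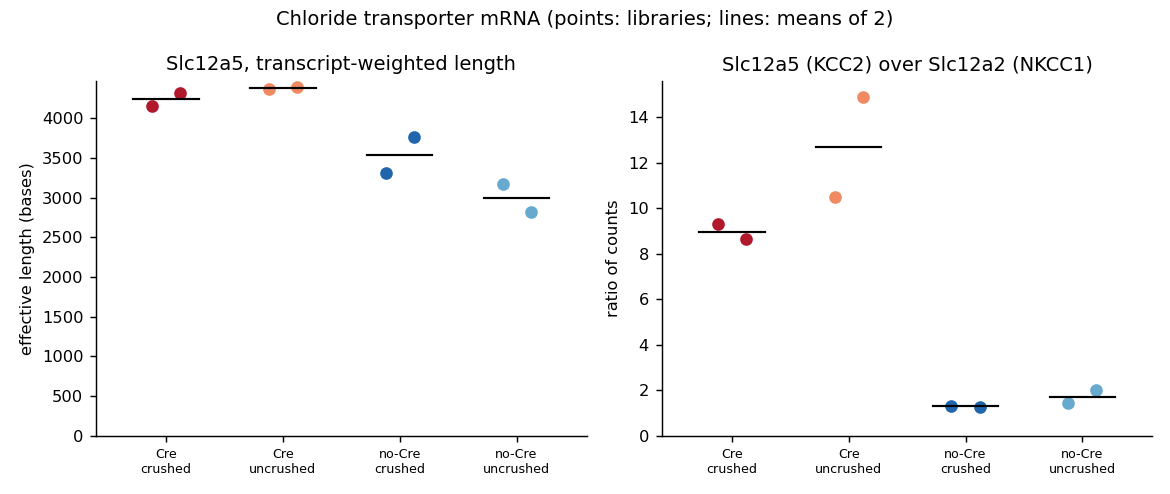
Left, effective length of Slc12a5 in bases, and right, ratio of Slc12a5 (KCC2) to Slc12a2 (NKCC1) counts, with 1 point per library and a line at the mean of 2 for each of the 4 groups. The Cre libraries lie at 4148 to 4388 bases and at ratios of 8.66 to 14.9, above the no-Cre libraries at 2813 to 3759 bases and 1.27 to 1.99.

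Among themselves, the 7 profiles over the 8 libraries were closest for Glra1 and Slc12a5, with a root mean square difference of 0.198 log2 units after each profile was centred on its mean. Glra1 and Glrb differed by 0.267, Glrb and Slc12a5 by 0.379 and Glra1 and Gphn by 0.419. Gabra2 was 0.852 from Glrb, and Glra3 was at least 0.849 from every other member of the set. Among tested genes that averaged 5 CPM or more, the profiles nearest to Glra1 were those of Vapb (0.0979) and Dhdds (0.101), and to Glrb those of Pak3 (0.111) and Tgoln1 (0.124). Slc12a5 was nearest to Coasy (0.109) and to the sodium channel gene Scn1a (0.109), Gphn to Cnot11 (0.109) and Polr2b (0.111), and Gabra2 to Xpo1 (0.101) and Morc3 (0.172). Glra2 was nearest to Fech (0.111) and Lonp2 (0.148), but it had only 2 to 21 counts in the libraries without Cre. Counting error weighs on its profile, so which genes lie nearest to it is uncertain. For Glra3, with few counts, the nearest genes were Prcp (0.407) and Dcp1a (0.41), which is no close likeness. All 8 points of each profile share library depth and the difference between Cre and no-Cre precipitates. Each nearest gene was also picked from 9711 or 9712 genes, so a small difference by itself shows no close likeness for any of the 7.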

How the data were processed

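RNA precipitated from 8 spinal cords, ribosome-bound with Cre and background without, was sequenced, and the authors deposited 1 gene table per library. Bowtie2 2.2.0 and RSEM 1.2.12 are named per the submitters' processing notes, with no build or gene annotation stated (not given in the sources used here). The deposited expected counts estimate the reads of each gene, with no scaling for depth or length. They were rounded before testing. The deposited effective length, of the type other, is in bases, and the deposited TPM served to check the order of genes within a library. Symbols were assigned to 37607 of 38924 identifiers. Upstream sequences come from RefSeq on GRCm38.p6.

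The edgeR function filterByExpr (minimum count 10, minimum total 15) left 15208 genes, libraries were scaled by TMM, and edgeR 4.0.16 in R 4.3.3 fitted 1 quasi-likelihood model with 4 group means to all 8 libraries (4 residual degrees of freedom). The comparison over all libraries came from a separate fit to the same libraries, with crush and Cre as terms and its own estimate of the spread. Tests were two-sided, with Benjamini-Hochberg adjustment over all genes and calls at 0.05. Standard errors are approximate: each is its log2 fold change over the root of F. CPM use TMM-scaled totals, and 3 counts, the limit that 0 allows, were 0.19 to 1.17 CPM, which covers counting error only. Groups follow the titles, which number the animals, and no label says more of their independence. The p-values therefore set a group difference against the spread between these samples only. Intron retention and near-identical copies were not resolved by the gene counts.

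The 7 genes, their lists, the alternatives and the naming rule were chosen with earlier results of these data known. The rule named the 7 genes in every comparison, up to 3 called genes with the smallest p per direction and list, any partner in the same complex, and for each of the 7 the 2 nearest profiles (prior count 2). Insyn2a was matched through an older symbol. Alternatives were DESeq2 1.42.0, its size factors, library size alone, leaving out mitochondrially encoded genes, no filter, only the compared groups, grouping by genotype entry, dropping the 2 contradictory libraries, an age covariate, and dropping 1 library at a time. Scripts were tested on simulated data. Some genes of the lists are counted but not reported here by name.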

Additional observations from a re-analysis of the deposited data

How the results depend on the processing

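No paired analysis was possible because each animal has a number of its own. Except where calls over all genes are given, counts under the alternatives have no share of all genes beside them, so a lower count is no result about the 7 genes. In uncrushed cord 4 of the 7 genes were called higher with Cre. This count was 0 when libraries were grouped by genotype entry, with Glra1 at -0.15, Glrb at -0.03, Gphn at -0.39 and Slc12a5 at -0.25 (adjusted p = 1 for each). That grouping put animal 3 with the no-Cre and animal 4 with the Cre libraries, against their motor neuron marker sums of 2060 and 163 CPM. Dropping both libraries with contradictory entries left 1 on each side, as described above. In crushed cord the count of 4 became 2 with scaling by library size alone (Gphn 1.07, adjusted p = 0.0832, and Slc12a5 0.93, adjusted p = 0.0584), 0 with grouping by genotype entry, where the spread is estimated with the regrouped uncrushed libraries, and 1 with age as a covariate, which chiefly sets Cre crushed animal 35 apart. Over all libraries it was 4, and 0 with grouping by genotype entry. Leaving out 1 library at a time gave 4 to 5 calls in uncrushed cord, 1 to 4 in crushed cord, 4 to 5 over all libraries and 0 to 0 for crush with Cre. For crush with Cre the count was 0, and 1 (Slc12a5) with DESeq2's Wald test. For crush without Cre it was 0, and 1 (Gabra2, log2 1.97, adjusted p = 0.0443) with library size alone, which moved the median of all genes to 0.94 and gave Glra1, Glrb and Slc12a5 positive values of 0.60, 0.60 and 0.55. Library size alone moved the median of all genes to 0.65 in uncrushed cord, where 4753 of 6216 calls were then higher, and to 0.33 over all libraries, where 5262 of 8268 were. Glrb kept its call in 16 of 17 alternatives in each state. Gabra2 was called in uncrushed cord in 5 of 17. Calls over all genes for crush with Cre, 11 here, were 159 with DESeq2, 281 with no filter, 126 with only the compared groups and 0 with grouping by genotype entry; the cause was not tested. For the interaction they were 0, 15 with DESeq2 and 87 with no filter. Glra2 and Glra3 rest on few counts, and counting error and the spread between animals cannot be told apart for them. With only the compared groups, Glra3 in uncrushed cord and Glra2 without Cre were below the filter on low counts.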
